A study of Mus musculus with 4 samples.

Results

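The muscle-type energy metabolism genes are the 10 mouse genes Ckm, Ckmt2, Pygm, Phkg1, Eno3, Pgam2, Fbp2, Ampd1, Mb and Cox6a2, 10 of the 21878 genes in the mRNA table. They were chosen by name, and every RefSeq transcript listed under a gene, 20 of 75959 in all, was added up to give 1 value per gene and sample. C3H10T1/2, an established line of mouse mesenchymal stem cells, was compared without treatment (2 samples, replicates 1 and 2) and after 5-AZA (5-azacytidine, an analogue of cytidine that blocks the upkeep of DNA methylation; 2 samples, replicates 101 and 102). The 5-AZA cells are listed with 20 µM of the drug for 72 hours followed by 21 days without it in new medium, although several exposures are named in the methods of the paper. The untreated cells have no listed time in culture, so time in culture and the drug cannot be told apart. The libraries were stranded and made from total RNA after removal of the ribosomal part, and the question of the study was which transcripts accompany the differentiation of these stem cells towards skeletal and cardiac muscle.

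Contracting muscle spends ATP faster than most tissues, and it carries its own isoforms of several enzymes to replace it. Creatine kinase passes phosphate between creatine and ATP, glycogen phosphorylase and its kinase release glucose units from glycogen, enolase and phosphoglycerate mutase act in the lower part of glycolysis, AMP deaminase opens the purine nucleotide cycle, myoglobin binds oxygen, and cytochrome c oxidase consumes it. For most of these steps a sister gene does the same work in non-muscle cells, such as Ckb for Ckm, Pygb for Pygm or Eno1 for Eno3.

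Promoter sequence is given for Ckm, Pygm and Pgam2, which had low levels in the untreated cells and large differences between the groups. Other members, such as Mb, met this description too and are not printed. All the stretches printed hold the motif CAGCTG, which is counted below. The stretches are the 250 bases before the annotated start in RefSeq (GRCm38.p6), written 5′ to 3′ in the direction of the gene, with each E-box CANNTG, the sequence that myogenic regulators of the MyoD family bind, in capitals.
Ckm, chr7:19410844-19411093, plus strand: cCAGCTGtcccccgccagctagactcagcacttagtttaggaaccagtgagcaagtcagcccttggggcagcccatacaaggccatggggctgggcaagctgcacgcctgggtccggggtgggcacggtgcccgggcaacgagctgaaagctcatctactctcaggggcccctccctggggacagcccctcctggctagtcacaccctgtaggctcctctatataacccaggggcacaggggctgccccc
Pygm, chr19:6384158-6384407, plus strand: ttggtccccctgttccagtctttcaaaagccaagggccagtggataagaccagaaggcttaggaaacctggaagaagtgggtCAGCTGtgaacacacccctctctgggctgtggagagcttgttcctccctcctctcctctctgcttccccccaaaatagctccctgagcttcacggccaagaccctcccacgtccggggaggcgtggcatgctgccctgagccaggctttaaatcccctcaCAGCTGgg
Pgam2, chr11:5803797-5804046, minus strand: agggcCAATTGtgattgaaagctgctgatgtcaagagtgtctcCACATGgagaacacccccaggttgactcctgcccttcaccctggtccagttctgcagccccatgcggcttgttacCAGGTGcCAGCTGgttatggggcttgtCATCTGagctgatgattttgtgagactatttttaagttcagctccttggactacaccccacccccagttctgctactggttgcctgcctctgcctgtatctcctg
Windows of this length were found for 8 members (10 windows, with 3 for Mb, of which 2 overlap), and none for Cox6a2 and Ampd1. CANNTG, which reads as the same motif on the other strand, was present in 10 of 10 member windows and in 66.2% of the 32851 windows of all genes. Its form CAGCTG was present in 7 of 10 member windows and in 13.0% of all windows. The 2 overlapping Mb windows held it at 193 and 133 bases before their starts, which is the same site counted in both. It was absent from the windows of Eno3 and Phkg1 and from the separate window of Mb. In the Pygm stretch both E-boxes had this form, at 168 and 8 bases before the start, and the single E-box of Ckm had it at 249 bases. TATAAA, searched on both strands, was in 0 of the 10 member windows and in 12.4% of all windows. The binding site of MEF2, a factor of muscle and heart, was in 1 member window, that of Pgam2 at 80 bases before the start, and in 2.92% of all windows. Member windows held between 1 and 8 CpG dinucleotides, the target of DNA methylation, with a median of 2.5 against 6 over all windows. DNA methylation and factor binding were not measured in these samples, so a match describes letters in a window and no site in use.

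In the 5-AZA cells 9 of the 10 genes were called higher, 0 were called lower, and Phkg1 was not called. Values are FPKM, in which the fragments of a transcript are divided by its length and by the total sequenced, so levels of different genes are given per length. Fold changes and tests come from limma on log2(FPKM + 0.1) over the 13199 genes with a mean of at least 0.1 FPKM, and a gene was called where its Benjamini-Hochberg adjusted p was below 0.05 and its change over 2-fold. Over all genes tested 1724, or 13.1%, were called higher and 174, or 1.32%, were called lower. After quantile normalization these counts were 1041 and 886, and 9 members were still called higher. All 10 members passed the limit on low values, but Ckm, Ckmt2, Ampd1, Mb and Fbp2 passed it through the 5-AZA samples alone and so had to differ. Of the 5 that passed in the untreated samples by themselves, 4 were called higher, where 7.41% of the 12130 genes of that kind were. For 9 members both 5-AZA values lay above both untreated values, as did those of 36.8% of all genes tested.

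As a group the members summed to 10.5 and 8.97 FPKM in untreated 1 and 2, and Eno3 held most of that. In 5-AZA 101 and 102 the sum was 160.2 and 212.4 FPKM. The share of the summed FPKM of all mRNAs held by the members was 0.00306% and 0.00268% in the untreated samples and 0.0488% and 0.0587% in the 5-AZA samples. The median log2 fold change of the 8 members with a value above 0 in untreated cells was 4.63, and that of all genes tested was 0.05. Among the 8, Ckm, Mb and Ampd1 passed the limit on low values through the 5-AZA samples alone and so had to differ. The 5 that passed in the untreated samples had values of 5.06 for Pygm, 4.99 for Pgam2, 4.27 for Cox6a2, 2.87 for Eno3 and 0.46 for Phkg1. RNA of whole cultures was measured, so a larger number of cells of a type and more RNA per cell cannot be told apart.

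**Figure D1:**
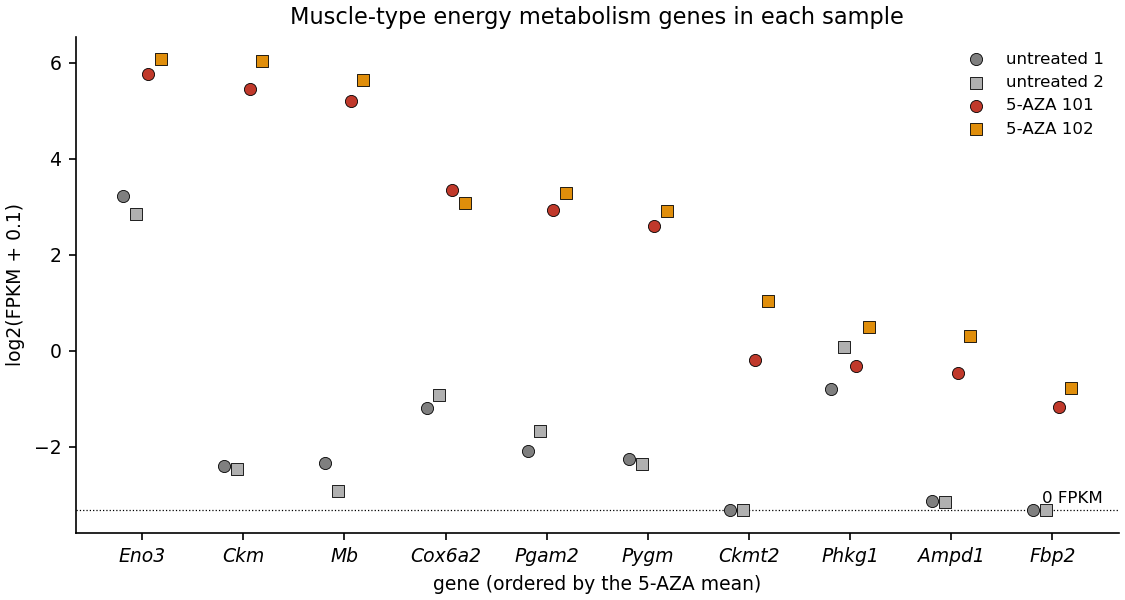
Level of each of the 10 genes in each of the 4 samples, as log2(FPKM + 0.1) on the vertical axis, with the genes ordered by their 5-AZA mean. Points are single samples, untreated in grey and 5-AZA in red and orange, and the dotted line is 0 FPKM. Only for Phkg1 do the groups overlap, and only for Cox6a2 is 5-AZA 102 below 5-AZA 101.

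Ckm encodes the cytosolic creatine kinase of muscle. Its level was 0.0888 and 0.0820 FPKM in untreated 1 and 2 and 43.6 and 65.2 FPKM in 5-AZA 101 and 102. It was close to absent from both untreated samples and one of the 3 highest members in both 5-AZA samples. The means were 0.0854 ± 0.00475 and 54.4 ± 15.3 FPKM (SD, n = 2 each), and the log2 fold change of 8.17 (SE 0.23, adjusted p = 1.82e-07, limma) was the largest of the members on this scale. Ckmt2, the creatine kinase of muscle mitochondria, was listed at 0 in both untreated samples and at 0.777 and 1.94 FPKM in 5-AZA 101 and 102 (adjusted p = 3.72e-04, limma). No fold change is given for it, since there is no level above 0 to divide by. Without the limit on low values, when more genes were tested, its adjusted p was 0.0524.

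Pygm encodes the glycogen phosphorylase of muscle, which cuts glucose units from glycogen. It stood at 0.111 and 0.0961 FPKM in the untreated samples and at 5.94 and 7.47 FPKM in the 5-AZA samples, with no overlap. The means were 0.103 ± 0.0104 and 6.70 ± 1.08 FPKM (SD, n = 2 each) and the log2 fold change was 5.06 (SE 0.25, adjusted p = 3.04e-06, limma). Phkg1 encodes the muscle form of the catalytic subunit of phosphorylase kinase, the enzyme that activates glycogen phosphorylase. Its values of 0.474 and 0.954 FPKM in untreated 1 and 2 and 0.704 and 1.31 FPKM in 5-AZA 101 and 102 were interleaved. Within each group 1 sample had close to 2 times the value of the other, and the log2 fold change of 0.46 (SE 0.39, adjusted p = 0.453, limma) did not pass the test. Over the alternative fits it lay between -0.47 and 0.89.

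Eno3, the muscle enolase of lower glycolysis, was the only member above 1 FPKM in both untreated samples. It measured 9.26 and 7.15 FPKM there and 53.8 and 67.1 FPKM in the 5-AZA samples, where it had the highest mean of the members. The means of 8.21 ± 1.498 and 60.4 ± 9.34 FPKM (SD, n = 2 each) stood in a ratio of 7.37, and the log2 fold change was 2.87 (SE 0.16, adjusted p = 4.89e-06, limma). The call was lost without 5-AZA 102 (log2 fold change 2.71, adjusted p = 0.0553, limma) and held without 5-AZA 101 (3.03, adjusted p = 0.0444, limma). Pgam2, the muscle phosphoglycerate mutase that acts just before enolase, had 0.134 and 0.213 FPKM in the untreated samples and 7.49 and 9.61 FPKM in the 5-AZA samples. The 5-AZA values were far above the untreated ones, and the log2 fold change was 4.99 (SE 0.26, adjusted p = 3.58e-06, limma). Fbp2 encodes the muscle fructose-1,6-bisphosphatase, which works in the direction of glucose and glycogen synthesis. It was listed at 0 in both untreated samples and reached 0.342 and 0.488 FPKM in the 5-AZA samples, the lowest of the members (adjusted p = 0.00247, limma).

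Ampd1 encodes the AMP deaminase of skeletal muscle. Its untreated values were 0.0139 and 0.0123 FPKM, and its 5-AZA values were 0.621 and 1.14 FPKM. Both groups were low, but they did not overlap, and the log2 fold change was 3.06 (SE 0.39, adjusted p = 5.65e-04, limma). With a pseudocount of 1 FPKM in place of 0.1, Ampd1 and Fbp2 had log2 fold changes of 0.88 and 0.50 and were no longer past 2-fold.

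Mb encodes myoglobin, the oxygen-binding protein of striated muscle. It was at 0.0974 and 0.0322 FPKM in the untreated samples and at 36.8 and 49.9 FPKM in the 5-AZA samples. Its log2 fold change of 8.05 (SE 0.26, adjusted p = 3.13e-07, limma) was close to that of Ckm, and their order depended on the pseudocount, with 9.31 for Mb and 9.13 for Ckm at a pseudocount of 0.01 FPKM. Cox6a2, the heart and skeletal muscle form of subunit 6A of cytochrome c oxidase, had 0.337 and 0.431 FPKM in the untreated samples and 10.1 and 8.36 FPKM in the 5-AZA samples. The log2 fold change was 4.27 (SE 0.22, adjusted p = 3.58e-06, limma).

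The members fell into levels in the 5-AZA cells. By their mean the order was Eno3, Ckm, Mb, Cox6a2, Pgam2, Pygm, Ckmt2, Phkg1, Ampd1 and Fbp2. The values of Eno3 and Ckm overlapped, as did those of Ckm and Mb, and the same was true of Cox6a2 with Pgam2, of Ckmt2 with Phkg1 and of Phkg1 with Ampd1. Gaps wider than the spread between replicates lay between Pygm and Ckmt2 and between Mb and Cox6a2, while Pgam2 and Pygm, and Ampd1 and Fbp2, were apart by less than that spread. Both 5-AZA samples held 6 members at 1 FPKM or more, and 3 further members reached that level in 5-AZA 102 alone. In 9 of the 10 genes 5-AZA 102 was higher than 5-AZA 101, with a median ratio of 1.39, against 1.11 over all genes of at least 1 FPKM in the 5-AZA samples. The summed FPKM of all mRNAs was also larger in 5-AZA 102 (361664 against 328410). The share of all genes that were higher in 5-AZA 102 was not counted, so the count of 9 is no result about the members. Median ratios of the marker lists between the same samples were 1.51 for skeletal muscle, 1.53 for cardiac muscle and 1.42 for adipocytes. They were 1.56 for chondrocytes, 1.72 for immune cells and 1.08 for mesenchymal stem cells. These medians cover only list genes with a 5-AZA mean of at least 1 FPKM, while that of the members covers all 10. Under this limit the cardiac value rests on Gata4, Tnni3 and Tnnt2, and the immune value on Cd68 and Lyz2.

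Single transcripts showed which forms carried the sums. Of the 17 member transcripts that could be tested 8 were called higher and 0 lower, in 6 genes. Over all 35557 transcripts tested 2.10% were called higher. The called transcripts of Ckm and Mb passed the limit on low values through the 5-AZA samples alone and so had to differ. Eno3 and Mb each gave 2 of the called transcripts. No share was worked out for transcripts that passed in the untreated samples, so the count by itself is no result about the members. Eno3 had 5 transcripts, of which NM_001136062.2 held 56.6% of the 5-AZA sum. That transcript stood at 5.63 and 4.55 FPKM in the untreated samples and 31.2 and 37.2 FPKM in the 5-AZA samples, and NM_007933.3 stood at 2.47 and 1.73 against 19.2 and 26.8 FPKM. Both were called, with log2 fold changes of 2.73 and 3.39. A minor Eno3 transcript, XM_006532162.3, was not called and had 0.430 and 0.535 FPKM in the untreated and 0.289 and 0.287 FPKM in the 5-AZA samples. Of the 3 Mb transcripts NM_001164047.1 held 91.6% of the 5-AZA sum, with 35.1 and 44.3 FPKM. No transcript of Ckmt2, Fbp2, Ampd1 or Phkg1 was called by itself. For Ampd1 the predicted transcript XM_006501400.3 held 73.1% of the 5-AZA sum, at 0.621 and 0.664 FPKM, while the curated NM_001033303.2 reached 0.472 FPKM in 5-AZA 102 alone. Transcripts of a gene share reads, so the split among them is an estimate of the authors' quantifier. None of the 4295 circRNAs in the deposited data listed a member as its host gene.

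The sister genes of other tissues were compared next, 13 in all. Of the 11 that could be tested 3 were called higher and 0 lower, and 8 were not called. Pygb, the brain phosphorylase, was at 29.0 and 27.1 FPKM in the untreated and 30.2 and 37.8 FPKM in the 5-AZA samples, a log2 fold change of 0.27 (SE 0.13) that did not pass the test. Eno1, the enolase of most tissues, had a log2 fold change of 0.11 (SE 0.14), and Pgam1, the mutase of most tissues, had one of 0.02 (SE 0.10). Ampd2 and Phkg2, which serve liver and other tissues, had log2 fold changes of -0.09 (SE 0.15) and -0.19 (SE 0.16). Eno2 and Cox6a1, the neuronal enolase and the general form of subunit 6A, passed the threshold on the adjusted p (0.0255 and 0.0499, limma), but their log2 fold changes of 0.68 and 0.38 were under 2-fold.

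The 3 sister genes called were Ckb, Cygb and Ampd3. Ckb, the cytosolic creatine kinase of brain and many other tissues, rose from 1.04 and 0.736 FPKM to 10.9 and 13.8 FPKM, a log2 fold change of 3.66 (SE 0.22, adjusted p = 7.26e-06, limma). Cygb, or cytoglobin, a globin of fibroblast-like cells, rose from 0.282 and 0.346 FPKM to 1.30 and 1.88 FPKM (log2 fold change 2.01, adjusted p = 0.00129, limma). Ampd3, the AMP deaminase first known from red blood cells, rose from 2.63 and 2.56 FPKM to 6.40 and 6.50 FPKM (log2 fold change 1.28, adjusted p = 5.19e-04, limma). All 3 calls were lost without 5-AZA 102, with adjusted p-values of 0.0587 for Ckb, 0.0693 for Cygb and 0.0705 for Ampd3, and that of Ampd3 also without 5-AZA 101 (0.0634). The call of Cygb was lost as well with a pseudocount of 1 FPKM (log2 fold change 0.97) and without the limit on low values (adjusted p = 0.0511, limma). Fbp1, the liver bisphosphatase, had 0.170 and 0.321 FPKM in the untreated and 0.0181 and 0.158 FPKM in the 5-AZA samples and was not called, and its log2 fold change was -1.94 (adjusted p = 0.0135, limma) after quantile normalization. Ckmt1 and Pygl were listed at 0 in the untreated samples and stayed below 0.1 FPKM, too low to test.

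**Figure D2:**
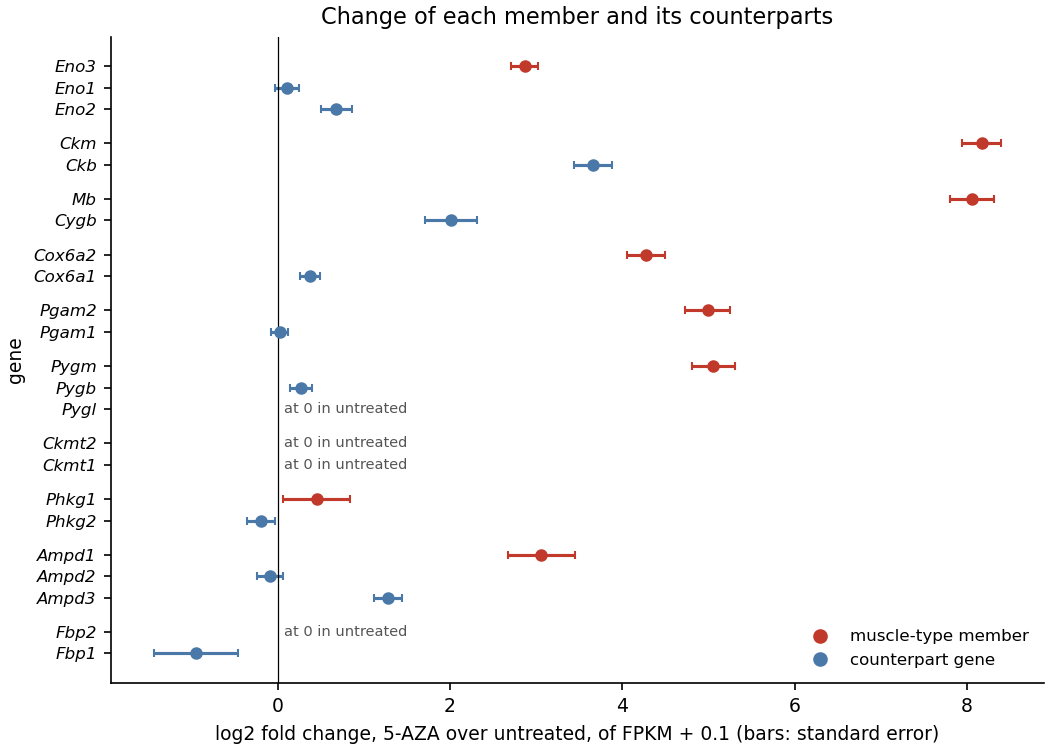
Log2 fold change of FPKM + 0.1, 5-AZA over untreated, for each muscle-type gene (red) and its sister genes (blue), with bars for the standard error of the limma fit. Genes at 0 in the untreated samples carry a note in place of a value. Ckm, Pygm, Eno3, Pgam2, Mb, Cox6a2 and Ampd1 lie to the right of their sister genes, and Phkg1 has bars that reach close to 0.

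The share of each family held by the muscle gene differed between the families. Ckm held 7.84% and 10.03% of the summed FPKM of Ckm and Ckb in the untreated samples and 80.0% and 82.5% in the 5-AZA samples. Mb held 25.7% and 8.50% of the sum with Cygb in the untreated and 96.6% and 96.4% in the 5-AZA samples. Fbp2 went from 0% in both untreated samples to 94.97% and 75.6% of the sum with Fbp1, at low levels of both genes, and Ckmt2 held 100% and 97.6% of the sum with Ckmt1 in the 5-AZA samples, with both genes at 0 before. In these 4 families the muscle gene was the larger part after 5-AZA. For the others whose sister gene was already abundant it remained the smaller one: Pygm held 16.4% and 16.5% of its family in the 5-AZA samples, Eno3 17.5% and 16.7%, Ampd1 4.56% and 7.31%, Cox6a2 5.01% and 3.41%, and Pgam2 3.55% and 4.33%. In the untreated samples the shares of Pygm, Pgam2, Ampd1 and Cox6a2 were all below 1%, and that of Eno3 was 3.20% and 2.72%. Phkg1 held 8.75% and 16.9% of the sum with Phkg2 in the untreated and 14.8% and 23.1% in the 5-AZA samples, with overlap between the groups.

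**Figure D3:**
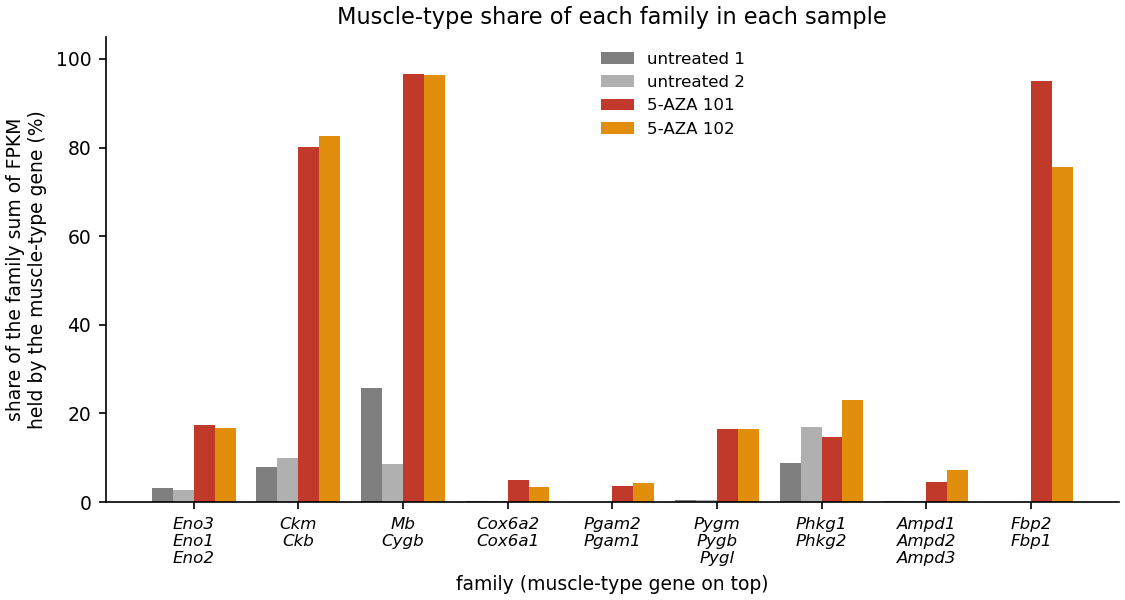
Share of the summed FPKM of each isozyme family that is held by the muscle-type gene, in percent, for each of the 4 samples (untreated in grey, 5-AZA in red and orange). The muscle-type gene is named on top of each family below the axis, and Ckmt2, whose family was at 0 in the untreated samples, is not drawn. In the 5-AZA samples the shares of Ckm, Mb and Fbp2 lie above 75%, and those of Eno3, Cox6a2, Pgam2, Pygm and Ampd1 below 18%.

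The log2 ratio of each muscle gene to each sister gene, taken as log2(FPKM + 0.1) of one less that of the other, was higher in both 5-AZA samples than in both untreated samples for 12 of the 13 pairs. The exception was Phkg1 to Phkg2, with a difference in group means of 0.65. In 6 of the 13 pairs the member had passed the limit through the 5-AZA samples alone, for Ckmt2 to Ckmt1 both genes were at 0 in the untreated samples, and Pygm, Eno3 and Ampd1 each stand in a pair of comparisons. The values of 36.8% of all single genes were separated in the same way, but no such share was worked out for ratios between genes. The count of 12 pairs by itself is therefore no result about the members. For Ckm to Ckb the ratio was -2.60 and -2.20 in the untreated and 1.99 and 2.23 in the 5-AZA samples, a difference of 4.51. The differences were 6.04 for Mb to Cygb, 4.97 for Pgam2 to Pgam1, 4.79 for Pygm to Pygb, 3.89 for Cox6a2 to Cox6a1 and 2.76 for Eno3 to Eno1. For Ampd1 they were 3.15 against Ampd2 and 1.78 against Ampd3, and with curated transcripts alone the latter turned to -1.03. With 2 samples against 2 an exact permutation test cannot give a p below 0.333, so these differences are descriptions.

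Other genes of the same pathways were looked up from 7 lists. As with the members, some of their called genes passed the limit on low values through the 5-AZA samples alone and so had to differ. Among list genes that passed it in the untreated samples, 1 of 4 was called higher in the creatine list, 3 of 20 in the glycogen list, 3 of 25 in the list of glucose uptake, glycolysis and gluconeogenesis, 2 of 9 in the purine list, 4 of 13 in the respiratory list, 2 of 14 in the list of regulators and 1 of 2 in the oxygen-binding list, where 7.41% of all genes of that kind were. In the creatine list 2 of 5 genes tested were called higher and 0 lower, namely Ckb and Gatm, which makes the precursor of creatine and went from 0 in both untreated samples to 1.22 and 1.26 FPKM. After median centring or quantile normalization 1 more gene of this list was called, the creatine carrier Slc6a8, which was lower. In the glycogen list 5 of 22 were called higher and 0 lower. Ppp1r3c, which brings protein phosphatase 1 to glycogen, had the largest change (0.0969 and 0.112 against 1.505 and 1.997 FPKM, log2 fold change 3.17, adjusted p = 1.07e-04, limma). Stbd1, which tethers glycogen to membranes, had a log2 fold change of 2.57, the branching enzyme Gbe1 one of 1.88, Nhlrc1, the ubiquitin ligase malin, one of 1.73, and Ppp1r3b, another phosphatase targeting subunit, one of 1.58. The count for glycogen fell to 3 with a pseudocount of 1 FPKM, to 3 after quantile normalization and to 2 of the 19 tested at a limit of 1 FPKM. It was lower as well with any 1 sample left out.

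In the list of glucose uptake, glycolysis and gluconeogenesis 7 of 29 genes tested were called higher and 0 lower. Aldoc, the brain aldolase, went from 0.0124 and 0.0699 FPKM to 2.33 and 4.11 FPKM (log2 fold change 4.53, adjusted p = 4.16e-05, limma). Slc2a4, the insulin-responsive glucose carrier of muscle and fat, went from 0.0763 and 0.0942 FPKM to 2.03 and 3.47 FPKM (log2 fold change 3.90, adjusted p = 5.22e-05, limma). The lactate carrier Slc16a3 had a log2 fold change of 3.89, Pck1, an enzyme of gluconeogenesis in liver and of glycerol synthesis in fat, one of 2.75, the bifunctional regulator Pfkfb1 one of 1.72, and Hk2, the hexokinase of muscle and fat, one of 1.24. The count was 4 with a pseudocount of 1 FPKM and 4 of the 25 tested at a limit of 1 FPKM, and it was lower as well without 5-AZA 102. In the purine list 2 of 9 were called higher and 0 lower, Adssl1, the muscle adenylosuccinate synthase that follows Ampd1 in the purine nucleotide cycle (0.178 and 0.188 against 1.64 and 2.21 FPKM, log2 fold change 2.83, adjusted p = 1.56e-04, limma), and Ampd3. That count was 1 without either 5-AZA sample.

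Among tissue-specific respiratory chain subunits and carriers 6 of 15 were called higher and 0 lower. Cox7a1, the muscle and heart form of subunit 7A, was listed at 0 in both untreated samples and at 24.6 and 27.5 FPKM in the 5-AZA samples, above Cox6a2. Cox8b, the form of subunit 8 in muscle, heart and brown fat, went from 5.56 and 3.47 FPKM to 56.4 and 88.8 FPKM, a log2 fold change of 3.98. Ndufa4l2, a relative of the oxidase subunit Ndufa4, had a log2 fold change of 6.50, Adck3, a kinase-like protein of coenzyme Q synthesis, one of 2.10 and Cox4i2 one of 1.86. Slc25a31, an adenine nucleotide carrier known from testis, went from 0 in both untreated samples to 4.29 and 5.17 FPKM. Only 2 were called without 5-AZA 101 and 2 without 5-AZA 102.

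Of 15 regulators of muscle metabolism 3 were called higher and 0 lower. The count was 1 with a pseudocount of 1 FPKM and 2 after quantile normalization, and it was lower as well without either 5-AZA sample. Mef2c had a log2 fold change of 1.28 and Prkaa2, a catalytic subunit of AMP-activated kinase, one of 1.51. Prkag3, a regulatory subunit of the same kinase found in skeletal muscle, was at effectively 0 in the untreated samples and at 0.443 and 0.491 FPKM in the 5-AZA samples. In the oxygen-binding list Cygb was called and Hba-a1 was not. The count was 0 with a pseudocount of 1 FPKM, and the call of Cygb was lost as well without 5-AZA 102. Median log2 fold changes of the 7 lists lay between 0.27 for glycogen and 1.11 for oxygen binding, against 0.05 over all genes.

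**Figure D4:**
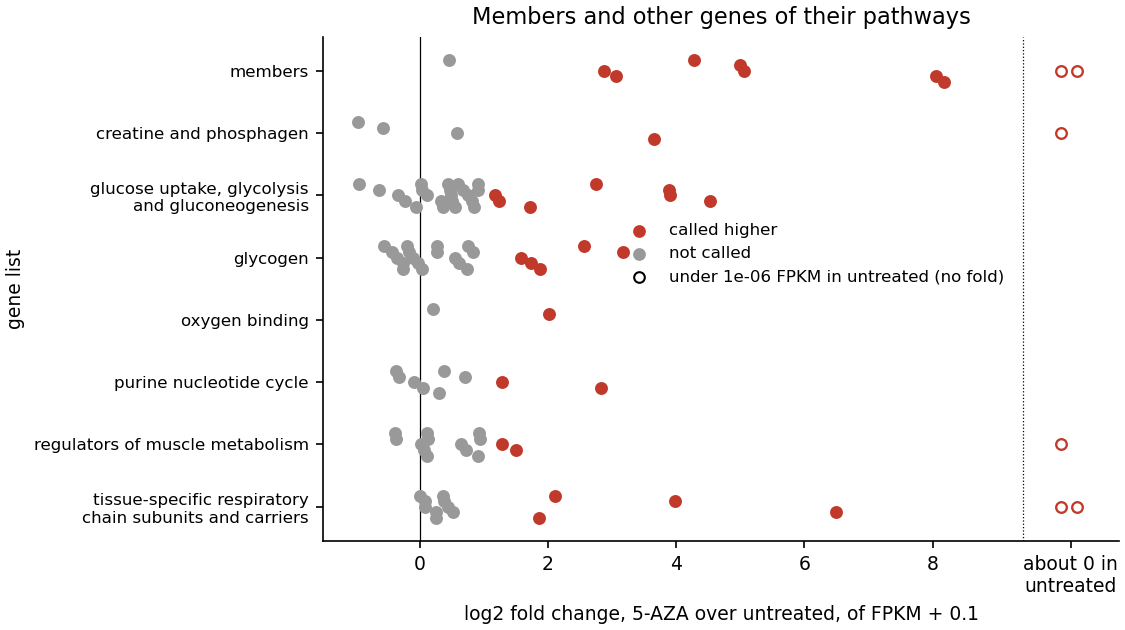
Log2 fold change of FPKM + 0.1, 5-AZA over untreated, of the 10 members and of every tested gene of the 7 pathway lists, with 1 point per gene, red where called higher and grey where not called. Open points right of the dotted line are genes under 1e-06 FPKM in both untreated samples, for which no fold change is drawn. Of the members with a fold change, 7 lie at 2.87 or higher and Phkg1 lies at 0.46.

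Genes with the most similar course over the 4 samples were sought among all genes tested, by the root mean square difference in log2(FPKM + 0.1), each gene less its own mean, from the mean course of the members. The closest 5 were Cdh15 (0.03), Trap1a (0.05), Col14a1 (0.06), Myom3 (0.06) and Camp (0.06). Cdh15 is the M-cadherin of muscle cells and Myom3 a protein of the M-band of the sarcomere. Col14a1 is a collagen of connective tissue and Camp an antimicrobial peptide precursor. Cdh15, Trap1a and Camp were listed at 0 in both untreated samples, and in the 5-AZA samples Cdh15 had 1.49 and 2.14 FPKM. With 4 points in 2 groups, likeness of this kind says little beyond the size of the difference between the groups.

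Markers of cell types moved with the same contrast. Skeletal muscle markers summed to 1.27 and 0.999 FPKM in the untreated and 366.5 and 580.9 FPKM in the 5-AZA samples, and 10 of 10 tested were called higher, with Myf5 and Myf6 listed at 0 in all samples. Of these 10, 6 passed the limit on low values through the 5-AZA samples alone and so had to differ, and the other 4 are to be read against 7.41%. Cardiac markers summed to 2.84 and 3.16 against 32.0 and 49.7 FPKM, and Tnnt2 alone held 28.3 and 43.1 FPKM of the 5-AZA sums. Of the 4 tested 3 were called higher, and Myh6 among them passed the limit through the 5-AZA samples alone. Of the 3 that passed in the untreated samples 2 were called higher, to be read against the same 7.41%. Gata4 was not called, Nkx2-5 and Ryr2 were too low to test, and 6 cardiac markers (Hand2, Kcnj3, Myl7, Nppa, Nppb and Tbx5) were at 0 in all samples. Adipocyte markers summed to 44.1 and 27.9 against 1100 and 1501 FPKM, and Fabp4 alone held 886.6 and 1195.6 FPKM of the 5-AZA sums. Of the 7 tested 6 were called higher, and Cidec among them passed the limit through the 5-AZA samples alone. Of the 6 that passed in the untreated samples 5 were called higher, again beside 7.41%. Several genes named above, such as Slc2a4, Pck1 and Cox8b, are also expressed in fat cells. The part of each of these cell types in the results on the members was not tested. Chondrocyte markers summed to 117.9 and 104.8 against 20.2 and 31.2 FPKM, with 1 of 5 called higher and 4 lower. All 5 passed the limit in the untreated samples, where 7.41% of genes were called higher, and 1.32% of all genes tested were called lower. Mesenchymal stem cell markers, the check of the labelled cell type, summed to 564.2 and 547.2 against 720.2 and 701.2 FPKM. Itgb1 (247.3 and 240.1 FPKM) and Ly6a (185.6 and 180.7 FPKM) held most of the untreated sums. In the untreated samples Thy1 (0.578 and 0.785 FPKM) and Eng (1.72 and 1.52 FPKM) were low, and Nt5e was listed at 0. The levels of Cd44, Vcam1, Pdgfra and Pdgfrb lay between these. Of the 8 tested 1 was called higher, Thy1, and all 8 passed the limit in the untreated samples, to be read against 7.41%. Immune cell markers summed to between 2.12 and 5.14 FPKM in every sample, with Adgre1 and Cd3e listed at 0 throughout and 1 of 2 tested called higher. Both tested passed the limit in the untreated samples, again beside 7.41%.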

How the data were processed

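RNA from 2 untreated C3H10T1/2 samples and 2 samples given 5-AZA was analysed, and all 4 entered each fit. For mRNAs the authors deposited FPKM values per RefSeq transcript, and for circRNAs RPM values, of which only the listed host genes were used here. The submitters' processing notes list Trimmomatic, HISAT2, Bowtie2 2.2.9 and eXpress 1.5.1, without roles, and build mm9, and the circRNA coordinates in the deposited data fitted GRCm38 genes of the same name for 88.4% of 2356 host transcripts, so no coordinates of the files are printed. Promoter windows come from RefSeq (GRCm38.p6). Counts of reads cannot be had from FPKM, and the depth of single values is therefore unknown. FPKM summed to between 328410 and 361664 per sample.

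Transcripts were summed per gene, and log2(FPKM + 0.1) of genes with a mean of at least 0.1 FPKM was fitted in R 4.3.3 with lmFit and a trended eBayes of limma 3.58.1 (tables read by data.table, version 1.17.8), with Benjamini-Hochberg adjustment over all genes tested. The paper's own test needs counts and was not used, and its thresholds were kept. Fold changes on this scale understate those of low genes. Promoters and figures were made with Python 3.11.15, pandas 2.3.3, numpy 2.4.6 and matplotlib 3.10.9. The fit was tested on simulated data.

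The members, 13 sister genes, 7 pathway lists and 6 marker lists were chosen with earlier results of these data known. Named were the members, their sister genes, every called gene of a pathway list (the 6 with the largest change where more were called) and the 5 genes of most similar course. Of the lists, 2 skeletal markers, 2 purine genes and 2 respiratory genes had no row under the symbol used. Alternatives were other pseudocounts, limits, scalings, eBayes without trend, single transcripts, curated transcripts, and each sample left out in turn. The paper calls the samples of a group biological repeats, but neither it nor the labels say how their cultures were kept apart, so p-values measure only the spread between these samples, which may be technical. The deposited FPKM values of lncRNAs near the members were looked up but are not reported, and 1 marker is not reported here.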

Additional observations from a re-analysis of the deposited data

How the results depend on the processing

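With 2 samples a group, the number of samples limits every result, and depth is unknown. The count of members called higher was 9 in the main analysis. It was 9 with a pseudocount of 0.01 FPKM, with median centring, with quantile normalization, without the trend and without untreated 1, untreated 2 or 5-AZA 101, and 8 without 5-AZA 102 or with no limit on low values. It was 7 with a pseudocount of 1 FPKM and 6 of the 6 members left at a limit of 1 FPKM, and 6 genes had a called transcript. Of the members left at that limit only Eno3 reached it in the untreated samples. The others passed it through the 5-AZA samples alone and so had to differ. Over all genes 845 of the 10800 tested at that limit were called higher. The cause of the differences between these settings was not tested. The median log2 fold change of the members, 4.01 over all 10, was 5.48 with a pseudocount of 0.01, 2.77 with a pseudocount of 1, 5.02 at a limit of 1 FPKM and 3.24 after quantile normalization. Each of these medians includes members that passed the limit on low values through the 5-AZA samples alone.

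Over all genes 1724 were called higher and 174 lower. These counts were 875 and 86 with a pseudocount of 1 FPKM, 1041 and 886 after quantile normalization, and from 785 to 1616 and from 50 to 181 with 1 sample left out, where the lone sample of a group is assumed to vary like the other group. Without a limit 83 genes were called lower, and at a limit of 1 FPKM 845 were called higher. Quantile normalization moved the median of all genes to -0.12 on the log2 scale. With curated transcripts alone the log2 ratio rose by 2.93 for Eno3 to Eno1 and by 1.62 for Ampd1 to Ampd2, and for Ampd1 to Ampd3 it turned to -1.03. For Ckmt2 to Ckmt1 it changed by between 3.13 and 3.79 with 1 sample left out. No paired analysis was possible because the groups share no replicate numbers.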

Other observations

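The genes below come from the same pathway lists and were chosen after their values were seen. Each had an adjusted p below 0.05 with a change under 2-fold, or no change past the test, so none was called in the main analysis. Of the other subunits of phosphorylase kinase, Phkb, a regulatory subunit, had 27.2 and 24.5 FPKM in untreated 1 and 2 and 16.6 and 18.4 FPKM in 5-AZA 101 and 102 (log2 fold change -0.56, adjusted p = 0.00764, limma). Phka1, the muscle form of the alpha subunit, had 7.34 and 7.11 against 5.68 and 6.44 FPKM (log2 fold change -0.25, adjusted p = 0.257, limma), and Phka2, the liver form, had a log2 fold change of 0.04. Over all genes tested 13.1% were called higher and 1.32% lower. The lack of a call in these subunits and in Phkg1 is therefore no result about the enzyme.

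The creatine carrier Slc6a8, which brings in the substrate of Ckm and Ckb, had 16.3 and 16.2 FPKM in the untreated and 7.52 and 9.19 FPKM in the 5-AZA samples (log2 fold change -0.96, adjusted p = 0.00108, limma). It was called lower after median centring (-1.07), after quantile normalization (-1.03) and without 5-AZA 102 (-1.10). Gamt, the last enzyme of creatine synthesis, had 19.0 and 18.0 against 10.9 and 14.3 FPKM (log2 fold change -0.56, adjusted p = 0.0229, limma). Both were lower in each 5-AZA sample than in each untreated sample. The basal glucose carrier Slc2a1 had 15.3 and 14.9 against 10.5 and 8.93 FPKM (log2 fold change -0.64, adjusted p = 0.00706, limma), and its level stayed above that of Slc2a4 in all 4 samples. The muscle phosphofructokinase Pfkm had 24.6 and 24.1 against 35.2 and 47.9 FPKM (log2 fold change 0.75, adjusted p = 0.00578, limma). The aldolase Aldoa had 325.3 and 335.8 against 521.1 and 674.5 FPKM (log2 fold change 0.84, adjusted p = 0.00184, limma). Aldoa was called higher without 5-AZA 101 (1.03). Pfkm and Aldoa were already above 20 FPKM in the untreated cells, unlike Pygm and Pgam2.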
